A study of Danio rerio with 13 samples.

Results

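Poly(A) RNA sequencing of 13 zebrafish acute lymphoblastic leukemias contained 3 B-type and 7 T-type libraries, which are compared here gene by gene. All 13 leukemias arose in fish of 1 double transgenic line that carries human MYC under the rag2 promoter, active in lymphoid precursors, together with eGFP under the lck promoter, active in lymphocytes. The labels give no B or T group. The groups were chosen by the measured level of blnk (ENSDARG00000042722), which encodes an adaptor protein of the B cell receptor. B-type means a blnk level above 8 in log2 CPM, the log2 of a library's reads of the gene scaled to a common library size, and T-type means a level below 4. The B-type libraries are hMYC-3, hMYC-4 and hMYC-5, and the T-type libraries are hMYC-2, hMYC-6 and hMYC-8, which share a description letter with the B-type ones, and hMYC-9, hMYC-10, hMYC-11 and hMYC-14, which carry another. Each is named by its title. Of the 3 libraries left out, hMYC-12 and hMYC-13 had intermediate blnk levels, and the hMYC-1 column repeats the reads of 5 others. Its total of 51808498 reads is close to the 51478946 summed over hMYC-10 to hMYC-14, and among 11072 genes with moderate counts only 1.45% had fewer reads in hMYC-1 than in that sum. Both groups carry the same transgenes and passed the same sort for green fluorescence from the whole body, and no library of normal lymphocytes is compared. Fish age is not given in the sources used here, and neither is whether each library is a separate fish.

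B and T lymphocytes share a progenitor and the RAG recombinase, which assembles their antigen receptor genes. The B lineage is set by transcription factors such as EBF1 and PAX5 and signals through CD79 chains, SYK, BTK and BLNK, whereas the T lineage depends on Notch, GATA3, TCF7 and BCL11B and signals through CD3 and CD247 chains, LCK, ZAP70 and LAT. Precursors of both lineages can give rise to acute lymphoblastic leukemia, and MYC, a transcription factor that drives growth, proliferation and ribosome synthesis, is a frequent partner in that process.

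The 10 libraries held 8166453 to 12297780 counted reads each. Of 32105 gene identifiers, 14875 reached at least 1 CPM in at least 3 of the 10 libraries and were compared. A gene is called separated here when the B-type and T-type libraries do not overlap and the group means differ by at least 1 log2 unit, which is 2-fold. By this rule 1400 genes were higher in B-type leukemias, which is 9.41% of those compared, and 669 were higher in T-type leukemias, which is 4.50%. Both shares are the background for the count of every gene list below. Because the groups were chosen on a gene of the same libraries, these counts are a description, and no p-value is given for any gene. The quasi-likelihood test of edgeR at a Benjamini-Hochberg adjusted p of 0.05, run on the same circular groups, called 1400 genes higher (9.41%) and 855 lower (5.75%) in B-type leukemias. The equal number for the higher genes is a coincidence, since 1192 genes were in both sets, which is 85.1% of the separated ones. Among genes separated toward T-type the test shared 549, or 82.1%.

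The separation was uneven in size as well as in number. The median difference, B-type minus T-type, was 3.30 log2 units over the genes higher in B-type leukemias and -1.96 over those higher in T-type leukemias, against -0.03 over all genes compared. A difference of at least 8-fold was reached by 793 genes on the B-type side and 165 on the T-type side. Of the 1400 genes higher in B-type leukemias, 344 stayed below 1 CPM in every T-type library. They could pass the filter only by reaching 1 CPM in all 3 B-type libraries, so their lack of overlap follows from the filter. On the other side, 73 genes stayed below 1 CPM in every B-type library. Those needed 1 CPM in only 3 of the 7 T-type libraries, so the filter did not treat the sides alike, and these counts are no result. The 2000 most variable genes were chosen with hMYC-12 and hMYC-13 included, and principal components were computed on the 10 grouped libraries alone. The first component held 56.8% of the variance among those 10. The B-type libraries lay at -122.5 to -94.7 on it and the T-type libraries at 17.3 to 79.8.

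**Figure D1:**
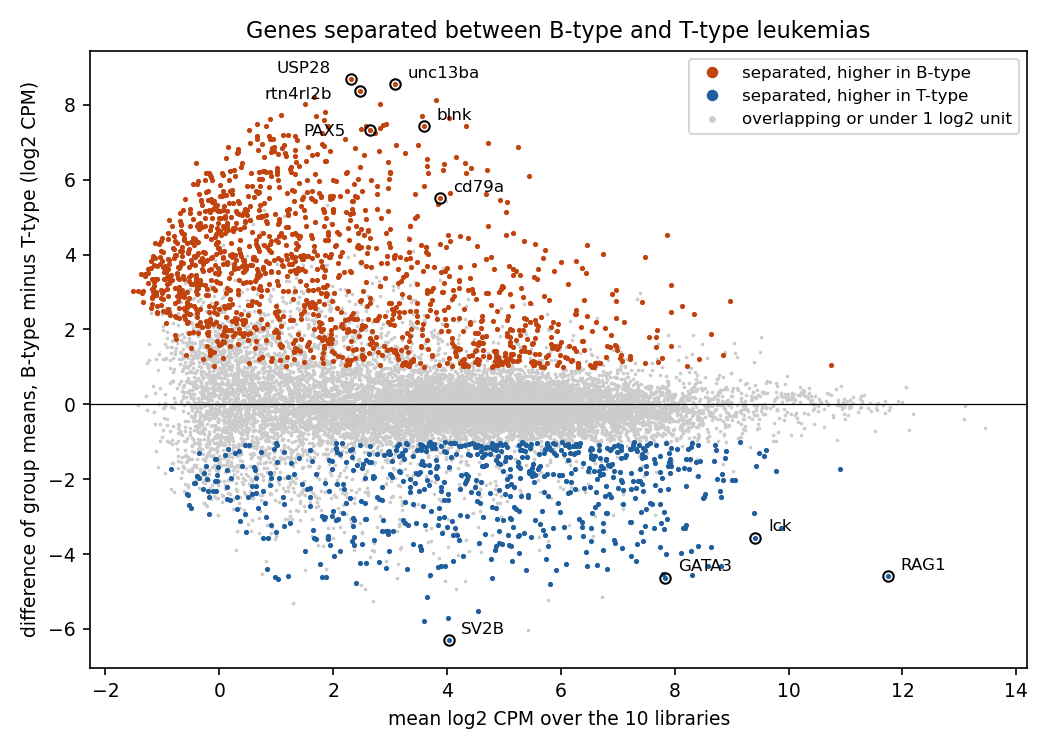
Difference of group means (B-type minus T-type, log2 CPM, vertical axis) against mean log2 CPM over the 10 libraries (horizontal axis) for the 14875 genes compared, each point 1 gene, with the 1400 genes separated toward B-type in orange and the 669 toward T-type in blue. The B-type side reaches farther from 0 and holds many genes of low mean level.

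The marker genes show how far apart the groups lie. The level of blnk was 9.04, 8.42 and 8.94 log2 CPM in hMYC-3, hMYC-4 and hMYC-5, against a lowest, median and highest T-type value of -0.86, 1.76 and 3.43. The libraries on either side of the gap were hMYC-4 at 8.42, the 2 left out at 6.62 (hMYC-12) and 4.66 (hMYC-13), and hMYC-2 at 3.43. This gene defined the groups, so its difference of 7.44 log2 units is no result.

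The other markers were not used in the rule but come from the same libraries. CD79a, a signalling chain of the B cell receptor, stood at 8.22, 7.79 and 7.20 log2 CPM in the B-type libraries (cd79a), against 0.62, 2.22 and 3.17 (lowest, median, highest) in the T-type ones. PAX5, the factor that commits cells to the B lineage, had 8.17, 7.20 and 7.97 log2 CPM in B-type leukemias, against -2.43, 0.89 and 2.58 in T-type leukemias. Neither gene overlapped between the groups, and both were highest in hMYC-3. The kinase gene lck, which signals from the T cell receptor and whose promoter drove the sorted reporter, ran the other way. Its level was 6.91, 8.37 and 5.50 log2 CPM in hMYC-3, hMYC-4 and hMYC-5, against 10.22, 10.42 and 11.25 in the T-type libraries. Expressed as a fold, lck was 11.8-fold lower in B-type leukemias, yet it was well above the filter in all 3. The 3 markers outside the rule thus separated the groups, with lck present on both sides.

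**Figure D2:**
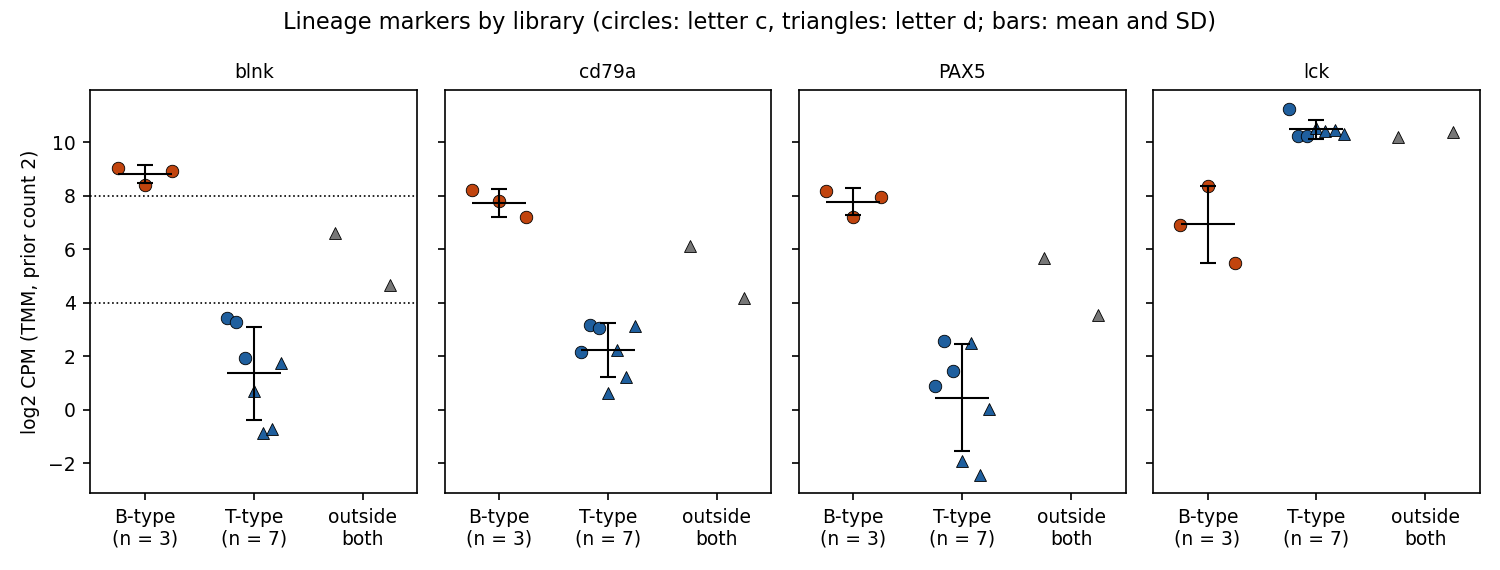
Log2 CPM of blnk, cd79a, PAX5 and lck by library, with B-type (n = 3) left, T-type (n = 7) in the middle and hMYC-12 and hMYC-13 at the right; circles carry letter c and triangles letter d, bars give mean and SD, and dotted lines mark the thresholds of 8 and 4 on blnk. The groups do not overlap in any of the 4 genes, which for blnk follows from the rule. The libraries outside both lie between the groups except in lck, where they sit beside the T-type ones.

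The sample descriptions carry a letter whose meaning is not given, and it is uneven between the groups. All 3 B-type libraries have letter c, as do hMYC-2, hMYC-6 and hMYC-8, while the other 4 T-type libraries have letter d. Letter d thus holds no B-type library, while within letter c 3 B-type can be set against 3 T-type libraries. With letter as a covariate on all 10 libraries, edgeR called 987 genes higher and 647 lower in B-type leukemias, against 1400 and 855 without it. Within letter c, 1346 of the 1400 genes higher in B-type leukemias (96.1%) and 620 of the 669 higher in T-type leukemias (92.7%) kept a difference of at least 2-fold. The genes had been selected for not overlapping in libraries that include these 6, so this share largely follows from the selection. Among T-type libraries, the level of genes higher in B-type leukemias differed between the letters, though not for every library. The median over those genes was 0.68 log2 CPM in hMYC-14 of letter d and 0.57 in hMYC-8 of letter c. T-type libraries of letter c lay above those of letter d by a median of 0.55 log2 units on the genes higher in B-type leukemias, by 0.0 on those higher in T-type leukemias and by -0.02 over all genes compared.

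Some T-type libraries held more of the B-type genes, and 1 B-type library held more of the T-type genes. Over the 1400 genes higher in B-type leukemias, the median level was 4.28, 4.0 and 4.33 log2 CPM in hMYC-3, hMYC-4 and hMYC-5. In the T-type libraries it was 1.0 in hMYC-2, 0.99 in hMYC-6, 0.68 in hMYC-14 and 0.57 in hMYC-8, and below 0 in hMYC-9, hMYC-10 and hMYC-11. Over the 669 genes higher in T-type leukemias, hMYC-4 had the highest B-type level for 442 (66.1%), with hMYC-3 highest for 146 and hMYC-5 for 81. Their median level was 3.44, 3.81 and 2.63 log2 CPM in hMYC-3, hMYC-4 and hMYC-5, against 5.33 to 5.61 in the T-type libraries. In bulk RNA, fewer cells of a type and less RNA per cell cannot be told apart, and the part of either in these values was not tested.

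Most B cell identity genes were higher in B-type leukemias. Of 17 list members compared, 13 were separated toward B-type (76.5%, against 9.41% of all genes) and 0 toward T-type, with a median difference of 6.19 log2 units, or 5.18 within letter c. This direction follows from the choice of groups by blnk and is a description. Among the transcription factors, EBF1 (ENSDARG00000099849), which opens B lineage genes, had 7.83, 7.07 and 7.57 log2 CPM in B-type leukemias, against -1.32, 0.92 and 2.78 (lowest, median, highest) in T-type leukemias. SPI1, which encodes the myeloid and B cell factor PU.1, had 8.10, 8.20 and 8.60 log2 CPM in B-type leukemias, against 0.36, 2.2 and 3.41 in T-type leukemias. BCL11A, needed for early B cells, differed by 6.33 ± 0.51 log2 units (SE).

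Immunoglobulin genes did not all behave alike. The heavy chain gene ight, of the teleost IgT class that mammals lack, had 8.25, 6.63 and 6.61 log2 CPM in B-type leukemias, against a highest T-type value of 2.75. The light chain gene igl1c3 had 6.76, 6.74 and 7.75 log2 CPM in B-type leukemias, against a highest T-type value of 1.41. By contrast, ighm, the IgM heavy chain gene, overlapped between the groups. It had 6.92, 5.78 and 3.52 log2 CPM in B-type leukemias, against 3.22, 3.77 and 7.66 in T-type leukemias, and its highest value of all 10 libraries was in the T-type library hMYC-14. The IgD gene ighd was separated toward B-type, but its levels were low, at most 2.26 in B-type and 0.40 log2 CPM in T-type leukemias.

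Where the fish genome carries a pair of copies of a mammalian gene, the copies could differ. The table names 2 identifiers FOXO1, a factor of early B cells. ENSDARG00000061549 averaged 7.31 ± 0.43 log2 CPM in B-type and 1.14 ± 2.27 in T-type leukemias (SD, n = 3 and 7), while ENSDARG00000099555 overlapped, at 4.88 ± 0.96 and 2.82 ± 1.91 log2 CPM in the same order. Of the 2 identifiers named MEF2C, ENSDARG00000009418 was separated by 5.82 log2 units, and ENSDARG00000029764 overlapped with a difference of -0.36. Reads of near-identical copies can be split or lost in counting, so differences between copies are uncertain.

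Transcripts of B cell receptor signalling genes were in part higher in B-type leukemias. The groups were chosen on blnk, whose product acts in this pathway, so this direction is a description. Of 17 signalling genes compared, 8 were separated toward B-type (47.1%) and 2 toward T-type (11.8%), with a median difference of 1.60 log2 units. The kinase genes at the start of the pathway, SYK and BTK, are counted among the identity genes above. SYK, which in mammals starts the signal, had 10.06, 9.73 and 10.36 log2 CPM in B-type leukemias, against -0.09, 4.23 and 5.44 in T-type leukemias. BTK, the kinase downstream of it, averaged 6.55 ± 0.26 log2 CPM in B-type and 0.36 ± 1.32 in T-type leukemias (SD, n = 3 and 7). The phospholipase gene PLCG2 differed by 2.15 ± 0.20 log2 units (SE). On the other side stood PTPN6, a phosphatase that restrains receptor signals in both lineages. Its level was 6.0, 6.58 and 3.90 log2 CPM in hMYC-3, hMYC-4 and hMYC-5, against 7.18, 7.74 and 8.54 in T-type leukemias, and without hMYC-5 its difference of -2.28 became -1.49. LYN, another kinase of B and myeloid cells and also on the identity list, differed by only 0.84 and was not separated.

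T cell identity genes were higher in T-type leukemias, but not uniformly. Of 20 compared, 1 was separated toward B-type (5%) and 13 toward T-type (65%, against 4.50% of all genes), with a median difference of -3.19 log2 units and -3.01 within letter c. The median was -2.24 without hMYC-5 and -3.87 without hMYC-4. GATA3, a factor of T lineage commitment, had 4.88, 6.11 and 2.78 log2 CPM in hMYC-3, hMYC-4 and hMYC-5, against 7.87, 9.38 and 9.98 (lowest, median, highest) in the T-type libraries. TCF7, a Notch-responsive factor of early T cells, had 3.92, 5.87 and 2.28 log2 CPM in the B-type libraries, against 7.46, 7.72 and 9.17 in the T-type ones. All 13 separated genes were highest in hMYC-4 among the B-type libraries, and 11 were lowest in hMYC-5.

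The T-type leukemias held transcripts of both coreceptors. The CD4 gene cd4-1 averaged 5.94 ± 1.72 log2 CPM in B-type and 9.17 ± 0.59 in T-type leukemias (SD, n = 3 and 7). The CD8 gene cd8a averaged 4.35 ± 1.97 log2 CPM in B-type and 8.07 ± 0.27 in T-type leukemias, and its partner cd8b was 10.1-fold lower in B-type leukemias. In bulk RNA these levels do not say whether 1 cell carries both. BCL11B, the factor that fixes T identity in mice, has a fish copy bcl11ba, which was lower by less, at 6.46, 7.15 and 6.91 log2 CPM in B-type leukemias, against 7.82, 8.62 and 8.93 in T-type leukemias. ZAP70, the kinase recruited to the T cell receptor, had 7.06, 7.63 and 7.34 log2 CPM in B-type leukemias, against 9.0, 9.25 and 10.03 in T-type leukemias. For those 2 genes the B-type libraries differed by under 1 log2 unit among themselves, unlike for GATA3 or cd8a. TOX overlapped between the groups with a difference of 0.49.

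The receptor CCR9 guides lymphocytes to thymus and gut in mammals, and the table gives its name to 2 identifiers that went opposite ways. ENSDARG00000099738 had 5.72, 6.37 and 3.49 log2 CPM in B-type leukemias, against 7.82 (lowest) and 8.82 (highest) in T-type leukemias. ENSDARG00000055186 was abundant in both groups, at 11.18, 11.86 and 11.40 log2 CPM in B-type leukemias, against 9.77, 10.15 and 11.15 in T-type leukemias. Its difference of 1.06 log2 units was close to the limit and became 0.69 within letter c, where it was no longer separated, as it was not without hMYC-4 (0.87), hMYC-9 (0.95), hMYC-10 (0.97) or hMYC-11 (0.95), or with DESeq2 size factors.

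Signalling from the T cell receptor held separated genes on both sides. Of 19 genes compared, 4 were separated toward B-type and 4 toward T-type, which is 21.1% each against 9.41% and 4.50% of all genes, and the median difference was 0.09 log2 units. The other 11 were not separated. On the T-type side were adaptor genes of the activating signal. For lat the values were 5.31, 6.79 and 2.95 log2 CPM in B-type leukemias, against 7.86, 8.43 and 8.80 in T-type leukemias, and THEMIS and skap1 differed by -3.66 and -4.0 log2 units. The other gene on that side was NFATC3, a factor that the signal activates, at -2.04. Genes whose products restrain the signal made up 3 of the 4 on the B-type side. PTPN6, another such gene but counted in the B cell receptor list, went the other way, at -2.28 log2 units. The phosphatase gene ptpn22 had 5.82, 6.32 and 5.65 log2 CPM in B-type leukemias, against -1.12, 3.16 and 4.08 in T-type leukemias, UBASH3B differed by 3.62 and the anchor gene pag1 by 3.96 log2 units. Within letter c the difference of ptpn22 was 2.63, in place of 3.94. No T-type library had more than 14 reads of pag1. The remaining gene on the B-type side, NFATC2, differed by 1.01 and was close to the limit. It was no longer separated within letter c (0.83) or without hMYC-5 (0.70), hMYC-10 (0.98), hMYC-11 (0.98) or hMYC-14 (0.88).

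The recombinase genes differed from each other. RAG1, the catalytic subunit of V(D)J recombination, had 9.17, 9.77 and 6.65 log2 CPM in hMYC-3, hMYC-4 and hMYC-5, against 12.34, 13.24 and 13.72 in T-type leukemias. That is 24.2-fold lower in B-type leukemias and among the 15 largest differences named on the T-type side outside the identity lists. RAG2, its partner, overlapped at 8.78, 7.89 and 8.26 log2 CPM in B-type leukemias, against 8.72, 9.08 and 9.49 in T-type leukemias, a difference of -0.80 ± 0.28 (SE). In fish, as in mammals, the genes are neighbours. The end-processing nuclease gene DCLRE1C (Artemis) averaged 4.73 ± 0.42 log2 CPM in B-type and 6.80 ± 0.57 in T-type leukemias (SD, n = 3 and 7). The polymerase gene polm was 12.6-fold lower in B-type leukemias. Of 15 genes of recombination and end joining compared, 0 were separated toward B-type and 3 (20%), RAG1, DCLRE1C and polm, toward T-type, with a median difference of -0.57 log2 units.

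The largest differences outside the B and T identity lists were sought among separated genes with a symbol whose higher group averaged at least 5 log2 CPM, 15 on each side. On the B-type side USP28, a deubiquitinase gene whose product stabilises MYC protein in human cells, came first, at 8.45, 8.54 and 8.22 log2 CPM in B-type leukemias, against -1.91, -0.98 and 3.59 (lowest, median, highest) in T-type leukemias. Next were unc13ba, a vesicle priming gene, with a difference of 8.54 ± 0.90, and rtn4rl2b, a Nogo receptor gene, with 8.38 ± 0.93 log2 units (SE). The GTPase gene rnd2 and the laminin gene lamc3 followed at 8.03 and 8.02. ANK3, known from axons, differed by 7.70 log2 units. The B cell tetraspanin gene cd37 had 9.68, 9.19 and 9.30 log2 CPM in B-type leukemias, against -0.47, 0.84 and 4.25 in T-type leukemias, and the actin capping gene CAPG differed by 7.43. For USP28, unc13ba and rtn4rl2b the highest T-type library was of letter c, and the differences within letter c were 7.03, 6.12 and 6.07 log2 units. Values near or below 0 log2 CPM rest on a few reads, and the size of such a difference depends on the prior count of 2 reads.

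On the T-type side the largest differences were smaller, and in 13 of the 15 genes hMYC-4 was the highest B-type library. SV2B, a synaptic vesicle gene, had -2.43, 2.80 and -1.49 log2 CPM in hMYC-3, hMYC-4 and hMYC-5, against 3.24, 6.56 and 8.59 in T-type leukemias. The forkhead gene foxc1b had -1.87, 2.97 and -2.43 log2 CPM in the same B-type libraries, against 3.33, 5.89 and 6.87 in T-type leukemias. Neither SV2B nor foxc1b was called by edgeR. CPS1, a urea cycle enzyme gene, and vsnl1b, a calcium sensor gene, differed by -5.72 and -5.53. A pair of more abundant genes was more even among T-type leukemias. RASA4, a Ras inhibitor gene, averaged 5.12 ± 2.22 log2 CPM in B-type and 9.67 ± 0.37 in T-type leukemias, and the adhesion gene NCAM1 averaged 4.63 ± 2.09 in B-type and 9.15 ± 0.30 in T-type leukemias (SD, n = 3 and 7).

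**Figure D3:**
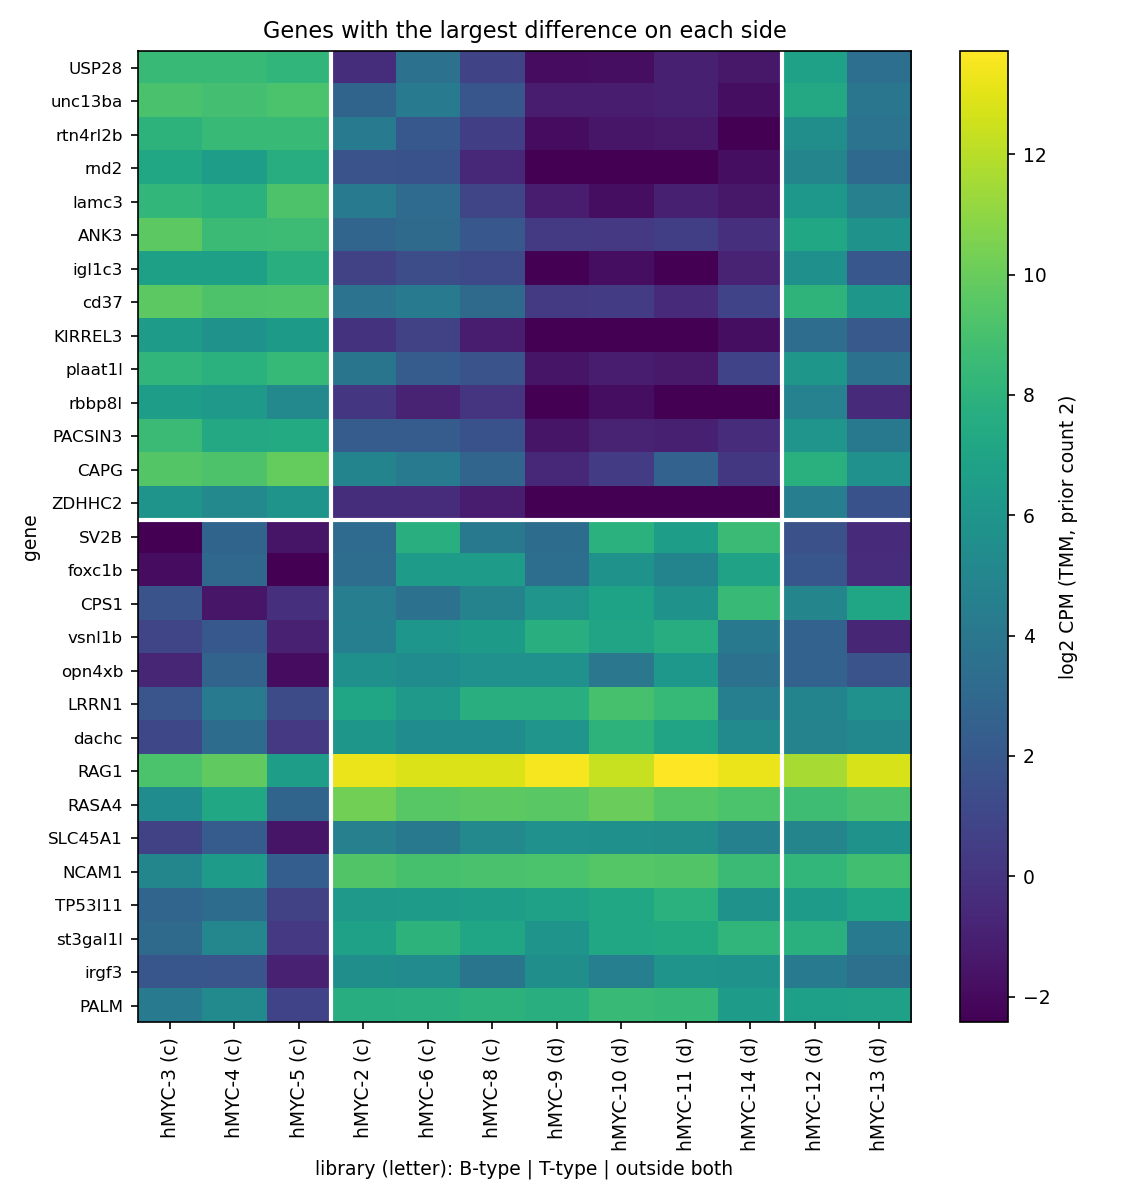
Log2 CPM (colour) of 14 of the 15 genes with the largest positive difference (upper block) and the 15 with the largest negative difference (lower block) among separated genes outside the identity lists whose higher group averages at least 5 log2 CPM, by library with its letter, B-type at the left, then T-type, then hMYC-12 and hMYC-13. USP28 leads the upper block at 8.22 to 8.54 in B-type libraries, and in the lower block hMYC-4 is the highest B-type library for 13 of 15 genes.

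Transcription factors of progenitors and early lymphocytes were more often higher in B-type leukemias. Of 27 compared, 10 were separated toward B-type (37%) and 2 toward T-type (7.41%), and the median difference was 1.39 log2 units. That median was 0.28 within letter c and 0.75 without hMYC-10. GATA2, a factor of blood stem cells, had 5.75, 5.62 and 5.70 log2 CPM in B-type leukemias, against -1.44, -0.41 and 2.71 in T-type leukemias. LMO2, a stem cell factor known as an oncogene of human T cell leukemia, had 6.30, 5.80 and 6.44 log2 CPM in B-type leukemias, against 0.45, 2.27 and 3.1 in T-type leukemias. ID3, an inhibitor of E proteins, was 19.1-fold higher in B-type leukemias, and IKZF2 (Helios) 11-fold higher. The E protein genes TCF12 and tcf3b went opposite ways, with differences of 2.2 and -1.26 log2 units. SOX4, a factor of both precursor lineages in mice, had 6.87, 7.05 and 6.61 log2 CPM in B-type leukemias, against 8.10, 9.28 and 10.41 in T-type leukemias.

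Homing receptors differed in both directions. Of 27 compared, 7 were separated toward B-type (25.9%) and 2 toward T-type (7.41%), with a median difference of 0.88 log2 units. Both identifiers named CXCR4, the receptor that holds blood cells in the marrow in mammals, were higher in B-type leukemias. ENSDARG00000041959 had 10.89, 11.01 and 11.16 log2 CPM there, against 4.73, 6.66 and 7.63 in T-type leukemias, and ENSDARG00000057633 differed by 6.10 ± 0.74 log2 units (SE). The gene of its ligand, cxcl12b, was lower in level, with 1.97, 4.12 and 4.95 log2 CPM in B-type leukemias, against a highest T-type value of 0.48. The factor genes klf2a and klf2b, which in mice sustain egress receptors, were 14.1-fold and 12.7-fold higher in B-type leukemias.

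Receptors for sphingosine phosphate, a signal for leaving tissue, split. S1PR4 averaged 4.53 ± 0.94 log2 CPM in B-type and 0.01 ± 0.82 in T-type leukemias, whereas S1PR2 averaged 5.55 ± 0.75 in B-type and 8.04 ± 0.30 in T-type leukemias (SD, n = 3 and 7). GPR183, which positions B cells in mouse follicles, was 12.2-fold higher in B-type leukemias. The integrin gene itgae.2, related to the chain that binds E-cadherin, had 6.33, 7.25 and 3.99 log2 CPM in B-type leukemias, against 8.75, 9.24 and 9.40 in T-type leukemias. Of 28 adhesion and matrix genes, 4 were separated toward B-type (14.3%) and 2 toward T-type (7.14%), with a median difference of -0.34 log2 units. The 4 include the junction genes jam2a, with a difference of 6.49, and JAM3, with 5.73 log2 units. The 2 toward T-type, NCAM1 and CD82, differed by -4.52 and -1.11.

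Notch signalling, which directs early T cells, had single separated genes on either side. Of 23 genes compared, 3 were separated toward B-type (13%) and 2 toward T-type (8.7%), against 9.41% and 4.50% of all genes. In a list of this size such counts are near the background, and the median difference was 0.25. The ligand gene dlc had 8.72, 8.10 and 9.02 log2 CPM in B-type leukemias, against 0.55, 2.82 and 5.09 in T-type leukemias. The other ligand named, jag1a, was on the T-type side, at 4.08, 4.64 and 1.94 log2 CPM in B-type leukemias, against 6.60, 6.86 and 7.38 in T-type leukemias. DTX4, a Deltex ubiquitin ligase gene, and NRARP, a feedback inhibitor that Notch induces in vertebrates, differed by 4.27 and 3.74 log2 units.

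Axon guidance genes and Wnt genes gave mixed counts. Of 28 axon guidance genes, 5 were separated on each side (17.9%), with EFNA1, an ephrin ligand gene, at 6.05, 6.38 and 5.52 log2 CPM in B-type leukemias, against a highest T-type value of 1.71. Of 27 Wnt genes, 5 were separated toward B-type (18.5%) and 1 toward T-type (3.7%). Their median difference was -0.08 log2 units and -0.87 within letter c. Of the 5, TCF7L2, dvl2 and FZD3 stayed below 1 CPM in every T-type library, so their lack of overlap follows from the filter. Of 26 tyrosine phosphatase genes, 1 was separated toward B-type (3.85%) and 2 toward T-type (7.69%). The larger of these was ptpn11b, a copy of the SHP2 gene, 10.4-fold lower in B-type leukemias.

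Cytokine signalling genes were separated toward B-type in 4 of 32 cases (12.5%) and toward T-type in 0, against 9.41% and 4.50% of all genes. The share toward B-type is thus near that of all genes. The median difference was 0.39 log2 units, and -0.07 within letter c. Of the 4 separated genes, 2 encode Janus kinases. TYK2 had 8.0, 9.02 and 9.71 log2 CPM in B-type leukemias, against 5.79, 6.08 and 6.53 in T-type leukemias, and jak2a averaged 8.81 ± 0.27 in B-type and 7.02 ± 0.64 log2 CPM in T-type leukemias (SD, n = 3 and 7). The receptor genes il10ra and csf2rb differed by 2.86 and 2.28 log2 units. The gene il7r, whose receptor sustains T and, in mice, B precursors, overlapped through hMYC-4, with 5.57, 6.75 and 3.21 log2 CPM in B-type leukemias, against 6.60, 8.20 and 8.53 in T-type leukemias.

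Single genes of antigen presentation were higher in B-type leukemias, and inducible proteasome genes were lower. Of 25 antigen presentation genes, 5 were separated toward B-type (20%) and 0 toward T-type, while the median of the list was 0.12 log2 units, and -0.07 without hMYC-3. The invariant chain genes, which escort MHC class II, were among them. The gene cd74a had 10.05, 9.54 and 8.44 log2 CPM in B-type leukemias, against 4.90, 6.99 and 8.08 in T-type leukemias, and cd74b differed by 2.94 ± 0.62 (SE). The activation marker gene cd83 was 11.4-fold higher in B-type leukemias. Of 46 proteasome genes, 0 were separated toward B-type and 5 toward T-type (10.9%), with a median of -0.41 log2 units. Of the 5, 4 (PSMB8, PSMB9, psmb12 and psmb13a) encode inducible catalytic subunits of the immunoproteasome or their fish relatives. PSMB9 had 6.49, 5.76 and 4.82 log2 CPM in B-type leukemias, against 6.79, 7.60 and 7.94 in T-type leukemias, and psmb13a had 6.77, 6.13 and 4.96, against 7.19, 7.86 and 8.11. In all 4 genes hMYC-5 was lowest and hMYC-3 was nearest to the T-type libraries.

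Interferon genes were separated at about the background rate, 3 of 32 toward B-type (9.38%) and 1 toward T-type (3.12%). Their median difference of 0.66 log2 units was 1.25 without hMYC-5 and 0.36 without hMYC-4. The gamma interferon gene ifng1 had 4.76, 5.04 and 2.95 log2 CPM in B-type leukemias, against -1.77, 0.06 and 2.14 in T-type leukemias. The factor gene tbx21 (T-bet), which activates that gene in mammals, was 15.3-fold higher in B-type leukemias. These are 2 of 10 cytotoxic and natural killer genes compared (20%, against 9.41% of all genes), and 0 were separated toward T-type. The other 8 were not separated, although 9 of the 10 had a higher mean in B-type leukemias. The median difference of that list was 1.85 log2 units, and 0.92 within letter c. It was 1.48 without hMYC-4 and 2.77 without hMYC-5. The mean over the 10 genes was 3.22, 3.41 and 1.09 log2 CPM in hMYC-3, hMYC-4 and hMYC-5. The hMYC-5 value lay below the 2.0, 1.98 and 1.34 of the T-type libraries hMYC-8, hMYC-2 and hMYC-14.

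Genes of immediate early activation were separated toward B-type in 4 of 35 cases (11.4%) and toward T-type in 1 (2.86%), which is near the 9.41% and 4.50% of all genes. Among the separated ones, EGR3, a factor induced by antigen receptors, had 9.27, 10.01 and 11.18 log2 CPM in B-type leukemias, against 5.05, 7.13 and 8.43 in T-type leukemias. The phosphatase gene DUSP2 had 10.06, 11.15 and 11.47 log2 CPM in B-type leukemias, against 6.19, 8.23 and 9.93 in T-type leukemias. NR4A1, another such gene, overlapped at 12.39 ± 0.53 log2 CPM in B-type and 11.92 ± 0.63 in T-type leukemias (SD, n = 3 and 7). The mean over all 35 genes was 6.61 to 7.47 in B-type libraries and 5.40 to 7.16 in T-type libraries, where the letter c libraries hMYC-2, hMYC-6 and hMYC-8 and the letter d library hMYC-14 were at 6.71 or more. Of 25 NF-kB genes 0 were separated.

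Survival and growth signalling genes were separated at shares near those of all genes. Of 54 genes of PI3 kinase, mTOR and FOXO signalling, 7 were separated toward B-type (13%) and 3 toward T-type (5.56%), against 9.41% and 4.50% of all genes. Their median difference was 0.10 log2 units, but -0.05 within letter c and -0.003 without hMYC-5. The mean over the 54 genes was 5.63 to 5.77 log2 CPM in B-type and 5.03 to 5.60 in T-type libraries. It did not overlap, but only narrowly, with hMYC-3 at 5.63 and hMYC-2 at 5.60. The insulin receptor substrate gene IRS2 had 7.19, 7.57 and 8.50 log2 CPM in B-type leukemias, against 4.26, 4.80 and 6.0 in T-type leukemias. PIK3CD, the catalytic subunit gene of leukocytes, differed by 1.22 log2 units. PIK3C3, the class III kinase gene of autophagy, was 6.33-fold lower in B-type leukemias. Of 44 apoptosis genes, 4 were separated toward B-type (9.09%) and 1 toward T-type (2.27%). Of these, bmf2 and bik encode BH3-only death inducers, and they differed by 3.78 and 3.62 log2 units. The mean over the 44 apoptosis genes overlapped, at 5.34 to 5.47 log2 CPM in B-type and 4.48 to 5.44 in T-type libraries.

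Among stress and clock genes, XBP1, the factor of the unfolded protein response and of plasma cells, had 8.35, 9.24 and 9.71 log2 CPM in B-type leukemias, against 4.22, 6.20 and 7.72 in T-type leukemias. Its list of 33 genes had 3 separated toward B-type (9.09%) and 1 toward T-type (3.03%), the inducible heat shock gene hsp70.1, at 8.6-fold lower in B-type leukemias. In hMYC-2 and hMYC-6 hsp70.1 was at 7.64 and 7.5 log2 CPM, in the other T-type libraries at 3.01 to 4.63, and edgeR did not call it. Of 33 circadian genes, 1 was separated toward B-type (3.03%) and 3 toward T-type (9.09%). CLOCK, a core factor of the clock, averaged 2.02 ± 0.28 log2 CPM in B-type and 4.28 ± 0.66 in T-type leukemias (SD, n = 3 and 7). Of 14 glucocorticoid response genes, 2 were separated toward B-type (14.3%) and 1 toward T-type (7.14%).

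Chromatin regulators were separated toward B-type in 5 of 64 cases (7.81%) and toward T-type in 8 (12.5%), with a median difference of -0.37 log2 units. The deacetylase genes split. HDAC7, which represses genes in thymocytes of mice, had 5.61, 6.60 and 5.02 log2 CPM in B-type leukemias, against 7.98, 8.29 and 9.04 in T-type leukemias, while hdac9b differed by 6.21 ± 0.54 log2 units (SE). SATB1, an organiser of thymocyte chromatin, was 8.8-fold lower in B-type leukemias. The Polycomb gene SUZ12 and the remodeller gene CHD4 differed by less. SUZ12 had 6.36, 6.80 and 6.54 log2 CPM in B-type leukemias, against 7.93, 8.15 and 8.34 in T-type leukemias, and CHD4 had 6.98, 7.08 and 7.14, against 8.33, 9.07 and 9.79. DNMT3A, a DNA methyltransferase gene, was 8.15-fold higher in B-type leukemias.

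**Figure D4:**
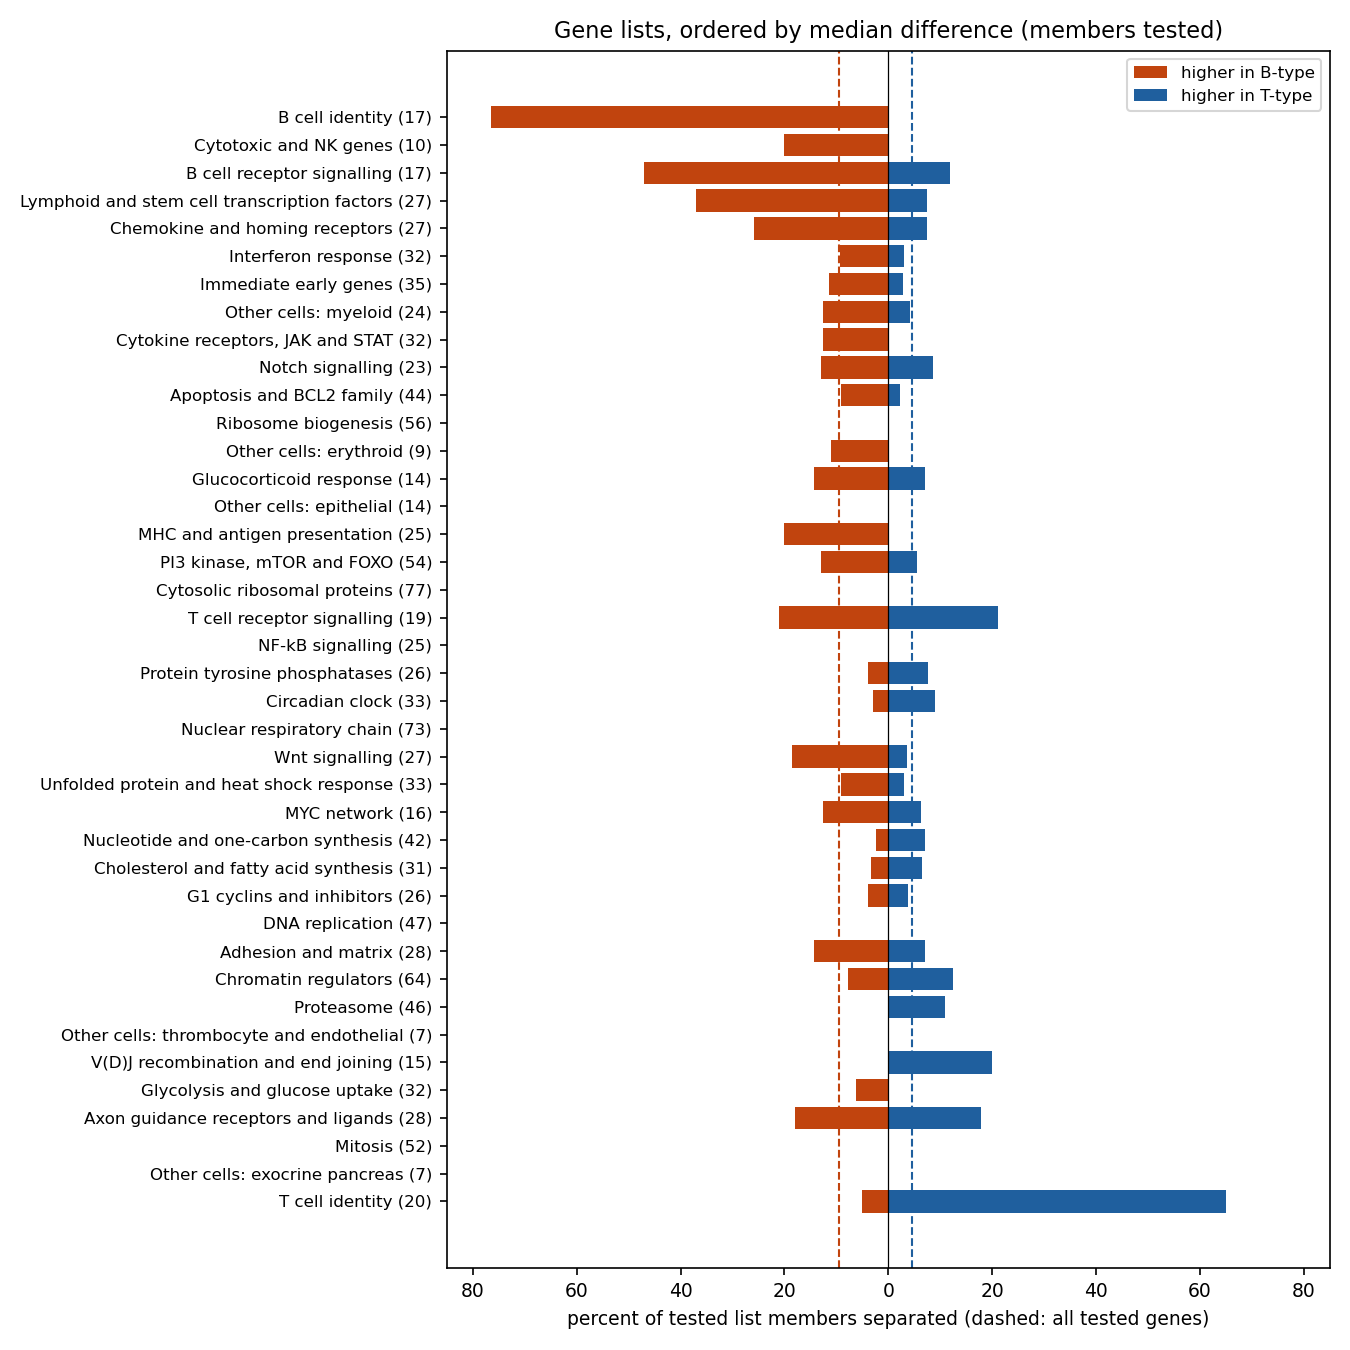
Percent of the compared members of each gene list that were separated toward B-type (orange, to the left) or T-type (blue, to the right), for the lists described that have at least 7 members compared (number in parentheses), ordered by median difference; dashed lines mark 9.41% and 4.50% over all genes. The identity lists reach 76.5% and 65%, and ribosome, replication, mitosis and respiratory chain lists have no bar.

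Genes downstream of MYC mostly overlapped between the types. The level of the human transgene is not analysed here. The zebrafish gene named MYC with identifier ENSDARG00000045695 had 6.60, 7.20 and 7.15 log2 CPM in B-type leukemias, against 3.34, 5.25 and 6.37 in T-type leukemias, and mych had 8.76, 8.69 and 9.77, against 5.23, 7.41 and 8.38. Their differences of 2.19 and 1.98 log2 units were 1.33 and 1.3 within letter c. MAX, the partner of MYC, overlapped with a difference of -0.20. Of 16 genes of the MYC network, 2 were separated toward B-type (12.5%) and 1 toward T-type (6.25%).

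Downstream, 0 of 56 ribosome biogenesis genes and 0 of 77 ribosomal protein genes were separated in either direction, with median differences of 0.19 and 0.10 log2 units. The nucleolin gene ncl had 11.19, 11.35 and 11.24 log2 CPM in B-type leukemias, against 10.65, 10.97 and 11.89 in T-type leukemias. The mean over the ribosomal protein genes was 10.35 to 10.38 log2 CPM in B-type libraries and 9.87 to 10.79 in T-type libraries. The B-type values thus lay inside the T-type range, and 3 libraries cannot show small differences.

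Cell cycle genes varied within both groups. Of 47 DNA replication genes and 52 mitosis genes, 0 were separated, with median differences of -0.32 and -0.69 log2 units. Within letter c the replication median had the other sign, at 0.16. The mean over mitosis genes was 5.14, 3.29 and 4.51 log2 CPM in hMYC-3, hMYC-4 and hMYC-5, and 4.29 to 6.50 in T-type libraries, with hMYC-8 highest. Although 50 of the 52 mitosis genes had a lower mean in B-type leukemias, the libraries overlapped, and the median was -0.13 without hMYC-4 and -1.15 without hMYC-3. The proliferation marker mki67 had 8.96, 6.69 and 8.16 log2 CPM in B-type leukemias, against 8.13, 8.58 and 10.28 in T-type leukemias. Of 26 genes of G1 control, 1 was separated on each side (3.85%).

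**Figure D5:**
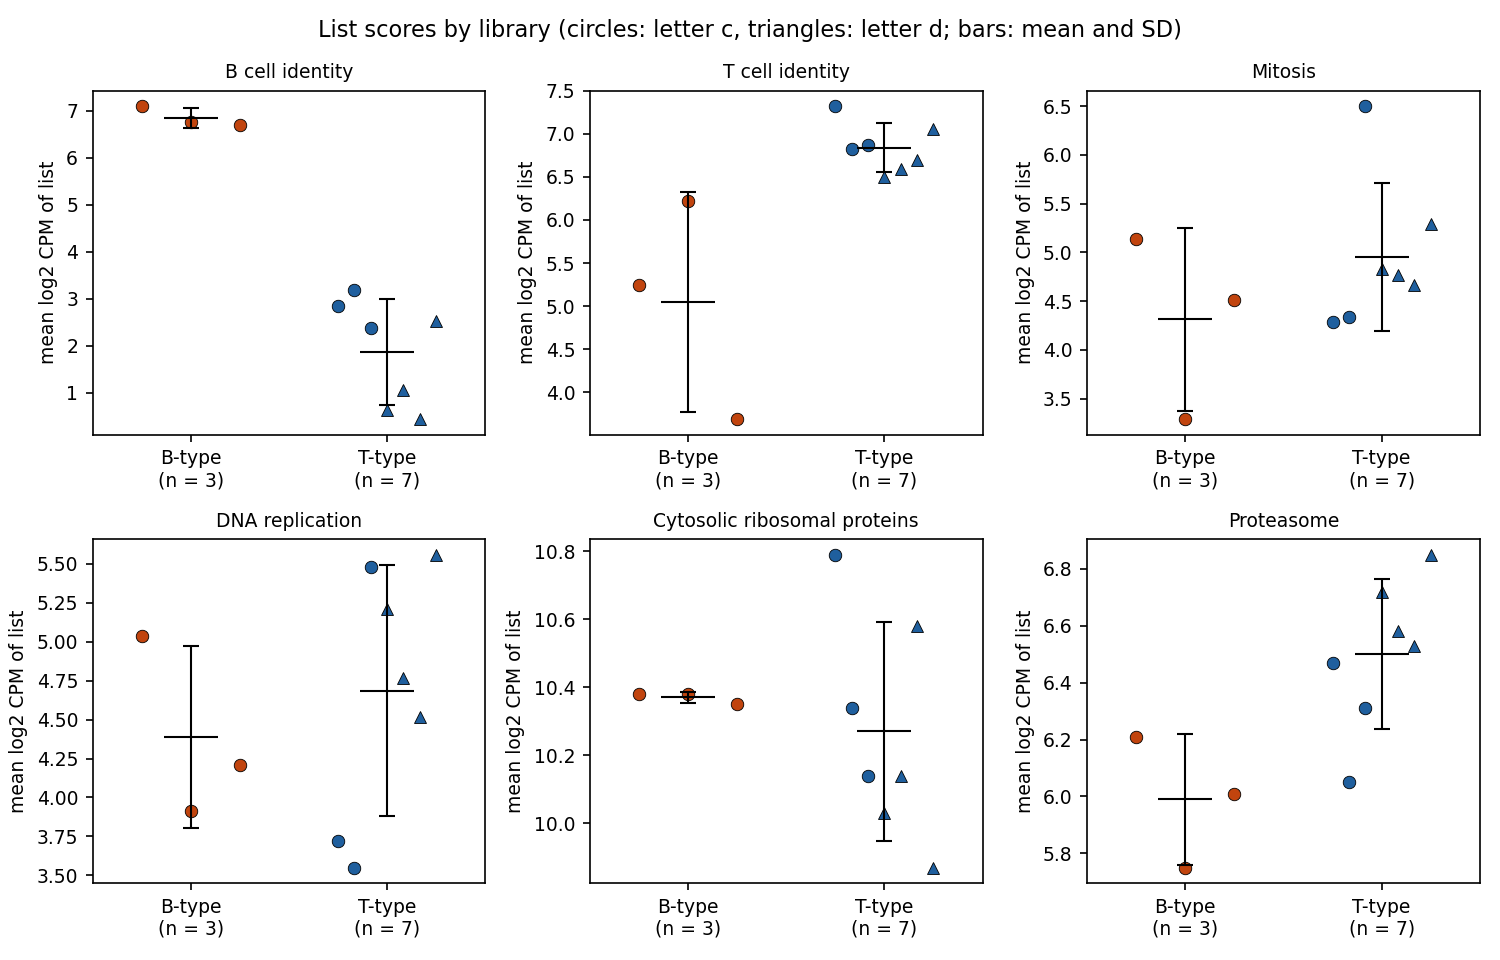
Mean log2 CPM over the compared members of 6 gene lists, by library, with B-type (n = 3) left of T-type (n = 7) in each panel; circles carry letter c, triangles letter d, and bars give mean and SD. Of the 6 lists drawn, only the identity lists separate the groups. B cell identity in T-type libraries runs from 0.44 to 3.18, while T cell identity in B-type libraries runs from 3.69 to 6.22.

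Metabolic lists were mostly within the spread. None of 73 nuclear genes of the respiratory chain was separated. Of 32 glycolysis genes, 2 were separated toward B-type (6.25%) and 0 toward T-type, although the median difference was -0.61 log2 units, or -0.27 within letter c. The 2 were the glucose transporter gene slc2a3a, with 4.55, 4.17 and 4.91 log2 CPM in B-type leukemias, against a highest T-type value of 2.87, and the lactate dehydrogenase gene LDHA, with 9.19, 9.96 and 10.19, against 8.13, 8.42 and 8.72 (lowest, median, highest). Of 42 genes of nucleotide and one-carbon synthesis, 1 was separated toward B-type (2.38%) and 3 toward T-type (7.14%). Largest among them was RRM2B, the ribonucleotide reductase subunit gene that p53 induces in human cells, at 5.31, 6.69 and 4.67 log2 CPM in B-type leukemias, against 9.15, 9.45 and 9.89 in T-type leukemias. Of 31 genes of cholesterol and fatty acid synthesis, 1 was separated toward B-type (3.23%) and 2 toward T-type (6.45%).

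Markers of other cells were compared because a sort from the whole body could carry them. Myeloid genes summed to 1715 to 2202 CPM in B-type and 768 to 2177 CPM in T-type libraries over 30 identifiers, with LCP1, which lymphocytes also express, the largest part. Of 24 compared, 3 were separated toward B-type (12.5%) and 1, CEBPA, toward T-type (4.17%), near the 9.41% and 4.50% of all genes. The 3 were led by the oxidase genes cybb and NCF1, which B cells also express. NCF1 had 9.35 to 9.67 log2 CPM in B-type libraries, but also 8.62 in hMYC-10 and 7.97 in hMYC-11, and edgeR did not call it. The level of cybb was 9.01, 8.90 and 8.57 log2 CPM in B-type leukemias, against 0.55, 2.54 and 4.14 in T-type leukemias. Of the 30 identifiers, 4, named MPEG1 or MFAP4 after macrophage markers, stayed below 1 CPM in all 10 libraries. The part of such cells in the results was not tested.

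Erythroid genes summed to 30.2 to 44.8 CPM in B-type and 4.66 to 220 CPM in T-type libraries over 13 identifiers, highest in hMYC-14, and gata1a stayed below 1 CPM throughout. Of 9 compared, 1 was separated toward B-type (11.1%), the anion exchanger gene SLC4A1 with identifier ENSDARG00000024560, at 1.68 ± 0.09 log2 CPM in B-type and -1.79 ± 0.62 in T-type leukemias (SD, n = 3 and 7). This identifier stayed below 1 CPM in every T-type library, so its lack of overlap follows from the filter. ENSDARG00000012881, also named SLC4A1, overlapped with a difference of 0.18 log2 units. Exocrine pancreas genes summed to 6.13 to 11 CPM in B-type and 2.2 to 179 CPM in T-type libraries, highest in hMYC-6, and 0 of 7 compared were separated. Muscle genes summed to 5.8 to 7.96 CPM in B-type and 4.21 to 210 CPM in T-type libraries, highest in hMYC-11. Epithelial genes summed to 44.3 to 122 CPM in B-type and 19.2 to 123 CPM in T-type libraries, and 0 of 14 compared were separated. The thymic stroma genes foxn1 and aire stayed below 1 CPM in all 10 libraries, and thrombocyte and endothelial genes summed to at most 11.9 CPM in B-type and 26 CPM in T-type libraries.

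The libraries outside both groups were set beside these differences. At the genes higher in B-type leukemias, hMYC-12 lay nearer the B-type mean for 852 of 1400 (60.9%) and hMYC-13 for 259 (18.5%). At the genes higher in T-type leukemias they lay nearer the B-type mean for 26.9% and 25.1%. Mean B cell identity was 5.35 in hMYC-12 and 3.64 log2 CPM in hMYC-13, against the 6.70 to 7.10 of B-type and the 0.44 to 3.18 of T-type libraries. Mean T cell identity was 7.30 and 6.44 log2 CPM in the same libraries. Thus hMYC-12 carried high levels of both sets of genes, and bulk RNA does not show whether in the same cells.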

How the data were processed

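The deposited table holds whole-number counts of reads per gene, which the authors made from TruSeq stranded poly(A) libraries of sorted leukemia cells, per the labels' protocols. Per the submitters' processing notes, bcl2fastq, STAR, Picard and featureCounts were used with build GRCz10; versions and the strand setting are not given in the sources used here, so overlapping genes and near-identical copies may share reads. Library totals were 8166453 to 12297780 among the 10 libraries compared. hMYC-1 was left out of every step because its counts repeat those of 5 other libraries. Symbols were found for 26269 of 32105 identifiers.

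Levels are log2 CPM from edgeR 4.0.16 in R 4.3.3, with TMM scaling over the other 12 libraries and a prior count of 2. Genes needed at least 1 CPM in at least 3 of the 10 libraries. The groups rest on blnk, so a gene is described as separated where the libraries do not overlap and the means differ by at least 1 log2 unit. SE is that of the difference of 2 group means. The quasi-likelihood test of edgeR (Benjamini-Hochberg threshold 0.05) was tested on simulated data and is given as a count only. Alternatives were size factors and the Wald test of DESeq2 1.42.0, library totals, a prior count of 0.5, no filter, a minimum difference of 2 log2 units, libraries of letter c alone, letter as a covariate, and leaving out each library.

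The members and lists were chosen with earlier results of these data known. Genes named are the markers, the identity lists, 15 genes a side as described, and up to 6 members of each list, separated ones first. PLCG2, PTPN6, GPR183, S1PR2, itgae.2, TCF12, tcf3b, SOX4, CHD4, SUZ12, PIK3CD, NFATC2 and NFATC3 lie beyond those 6 and were named after their values were seen. Promoter sequences are not shown here. Some genes and 1 gene list that were computed are not reported here.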

Additional observations from a re-analysis of the deposited data

Results flagged for a closer look

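Among 109 groups of values checked in the T-type libraries, 7 had 1 library far from the other 6. Chance gives about 1 in 20 such groups, so 7 is near the number chance gives.

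In hMYC-2, lck was at 11.25 log2 CPM, against 10.22 to 10.52 in the other T-type libraries. TCF7 was at 9.17 there, against 7.46 to 8.01. MEF2C (ENSDARG00000029764) was at 8.78 in hMYC-2, against 6.38 to 7.37, and LYN was low at 4.57, against 5.16 to 5.6. In hMYC-14, bcl11ba was low at 7.82, against 8.51 to 8.93, and PALM was low at 6.48, against 7.63 to 8.5. The mean over the axon guidance genes was 1.13 in hMYC-14, against 2.14 to 2.83 in the other T-type libraries. Both libraries have the same group label as the rest.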

How the results depend on the processing

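No separated gene named here changed sign under the alternatives run. With libraries left out or letter c alone none could, because its B-type libraries all lie on the same side of the T-type ones. Several list medians near 0 did change sign, among them those of NF-kB, respiratory chain, DNA replication, epithelial and phosphatase genes within letter c. Genes called lower in B-type leukemias numbered 855 with edgeR, 1586 with the Wald test of DESeq2, and 356 (without hMYC-5), 377 (without hMYC-3) to 1090 with 1 library left out. Genes separated toward T-type numbered 669, against 1141 within letter c, where fewer libraries have to be kept apart, and 321 at a minimum difference of 2 log2 units. Within letter c the median difference was 5.176 for B cell identity (6.189 over all), -0.271 for glycolysis (-0.609), 0.281 for lymphoid and stem cell transcription factors (1.386), -0.366 for the MYC network (-0.089), -0.475 for NF-kB (0.047), 0.153 for the respiratory chain (-0.043), -0.902 for epithelial genes (0.134), -0.331 for tyrosine phosphatases (0.023) and -0.872 for Wnt signalling (-0.076); the cause was not tested. With 1 library left out, the median ranged from 0.36 to 1.246 for interferon genes, from 0.747 (1.01 without hMYC-11, 1.031 without hMYC-4) to 1.644 for lymphoid and stem cell transcription factors, and from -3.865 to -2.239 for T cell identity. Of 213 named separated genes, 13 lost the call without 1 library, 9 within letter c and 11 with size factors or library totals. Without 1 library or within letter c, a call could be lost only through the 2-fold limit, not through overlap. No paired analysis was possible because the labels put all leukemias in 1 group and their numbers pair no libraries. Differences of genes near 0 reads depend on the prior count.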
